A study of Homo sapiens with 4 samples.

Results

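Translation initiation factors are the proteins that bring a ribosome to the start codon of an mRNA. Their genes were chosen by name: every symbol that begins with EIF and a digit, antisense and divergent transcripts left out, with a promoter peak in the first of 2 deposited tables of open chromatin. This gave 39 genes of the 10187 with a promoter peak in that table, and each gene was represented by the strongest of its promoter peaks. Of the 39, 36 overlapped a peak of the second table, against 8297 of all 10187. The rule did not use any difference between the groups.

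The assay was ATAC-seq, where a transposase cuts open DNA and adds sequencing adapters, and the cells were Kasumi-1, a human acute myeloid leukaemia cell line carrying the t(8;21) translocation. The SETD8 knockout group was made with CRISPR/Cas9 and the control group carried sgNT and is labelled as wild type, with 2 libraries each. SETD8, now called KMT5A, places a single methyl group on lysine 20 of histone H4. The guide sequences, the time after editing and whether the cells were pools or clones are not given in the sources used here, so the spread between libraries may be technical. The second table sets replicate 2 of the knockout against replicate 2 of the control (1 library each), whereas the libraries behind the first table are not named. Whether the tables share libraries is also not stated.

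Initiation runs in steps. The eIF2 complex carries the initiator tRNA, eIF3 organises the small ribosomal subunit, eIF1, eIF1A and eIF5 control the choice of start codon, and the eIF4 factors bind the mRNA cap and unwind the leader. Cells adjust the rate at a pair of points: kinases phosphorylate eIF2 and thereby block its exchange factor eIF2B, and 4E-binding proteins sequester the cap-binding protein eIF4E under the control of mTORC1. Promoters of such housekeeping genes are typically rich in CpG and open in all cell types, and MYC is a known activator of several of them, including EIF4E.

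In these libraries the initiation factor promoters had lower normalised levels in the knockout, as nearly all promoters did, and they lay slightly above the shared shift. The median log2 fold change over the members was -0.86 in the first table (n = 39 genes), beside -0.93 over all 10187 gene promoters. It was -1.19 in the second table (n = 36 genes), beside -1.26 over all 8297. The members thus stood 0.07 above the promoter median in both tables. Because this shared shift moves with the scaling between libraries, which is not stated, a gene is described below by its relative value, its log2 fold change minus that of the median gene promoter of the same table. Where a pair of relative values is given without further words, the first table's comes first. Reads are those of replicate 2 in the second table. In bulk libraries, fewer cells with an open promoter and a less open promoter per cell cannot be told apart.

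Promoters of members that the results turn on are printed here, so that the elements they carry can be read beside their values. They run from 150 bases before the RefSeq start site to 15 after it, 5′ to 3′ on the gene's strand, in GRCh38.p14. Capitals mark every match, on either strand, to CACGTG (the E-box bound by MYC with MAX and by related factors), GGGCGG (the GC box) or CCAAT. Of the motifs searched, these stretches hold no other, apart from the pyrimidine run described below at EIF4B, EIF3F and EIF1. The 4 promoters with the E-box shown are those of EIF4A3 at chr17:80147114-80147278 (minus strand), EIF4E at chr4:98929119-98929283 (minus strand), EIF4B at chr12:53006306-53006470 (plus strand) and EIF3F at chr11:7987187-7987351 (plus strand).
EIF4A3: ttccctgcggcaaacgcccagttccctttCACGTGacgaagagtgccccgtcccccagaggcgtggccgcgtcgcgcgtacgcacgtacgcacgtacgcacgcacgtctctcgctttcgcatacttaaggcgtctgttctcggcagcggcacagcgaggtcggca
EIF4E: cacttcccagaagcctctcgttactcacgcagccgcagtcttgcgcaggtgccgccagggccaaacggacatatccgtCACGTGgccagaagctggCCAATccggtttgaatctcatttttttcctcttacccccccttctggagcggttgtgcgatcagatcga
EIF4B: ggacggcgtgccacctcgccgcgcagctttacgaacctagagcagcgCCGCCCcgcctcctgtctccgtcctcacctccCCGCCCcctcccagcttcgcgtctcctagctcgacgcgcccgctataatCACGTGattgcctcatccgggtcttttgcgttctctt
EIF3F: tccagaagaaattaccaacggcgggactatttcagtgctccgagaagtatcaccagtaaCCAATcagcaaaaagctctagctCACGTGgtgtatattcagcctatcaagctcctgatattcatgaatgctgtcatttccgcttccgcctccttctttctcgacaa
The 3 without it are those of EIF1 at chr17:41688735-41688899 (plus strand), EIF4G3 at chr1:21176883-21177047 (minus strand) and EIF2S1 at chr14:67360178-67360342 (plus strand).
EIF1: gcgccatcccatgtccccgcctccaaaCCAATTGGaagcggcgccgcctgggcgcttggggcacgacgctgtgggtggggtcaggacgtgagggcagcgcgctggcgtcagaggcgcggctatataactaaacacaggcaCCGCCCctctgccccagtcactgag
EIF4G3: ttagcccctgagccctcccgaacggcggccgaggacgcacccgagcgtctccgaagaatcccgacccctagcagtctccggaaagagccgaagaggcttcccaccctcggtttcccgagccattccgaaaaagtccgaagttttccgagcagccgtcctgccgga
EIF2S1: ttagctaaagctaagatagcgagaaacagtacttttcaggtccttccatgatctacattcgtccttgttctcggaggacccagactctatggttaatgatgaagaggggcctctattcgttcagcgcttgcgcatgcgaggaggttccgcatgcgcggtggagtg

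All 39 representative peaks lay on an annotated start site, which 86.3% of all gene promoters did. They were of usual width, with a median of 816 bp (range 483 to 1476) beside 755 bp over all gene promoters. Their median level in the first table was 276 normalised reads, beside 236 over all, and 22 of the 39 exceeded the median gene promoter in level. Of the 31 members with a RefSeq window of 300 bases around a start site inside the peak, the median GC content was 65.0% and the median number of CpG was 27, beside 66.0% and 28 over 6273 genes with such a window. EIF4G1, a scaffold of the cap complex, had the fewest CpG with 5, and EIF4H the most with 45.

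The E-box occurred in 10 of the 31 members' windows (32.3%), beside 10.9% of the 6273, and all 12 copies lay before the start site. EIF4EBP3 had it 13 bases before the start, EIF4B 22, EIF1B 54, EIF3F 68 and EIF4A3 121 bases before. EIF4E carried a copy at 72 and another at 225 bases before its start. The remaining genes with an E-box were EIF2AK2, EIF2B3, EIF4H and EIF5A2. The ETS motif CCGGAAG occurred in 22.6% of the members' windows and 22.4% of all, GGGCGG in 71.0% and 75.7%, CCAAT in 45.2% and 39.5%, ATGGCGG in 12.9% and 11.6%, TATAAA in 6.45% and 4.69%, and the RUNX motif TGTGGT in 9.68% and 8.48%. Neither TGACGTCA nor the NRF1 palindrome was found in the members, and these were in 3.83% and 2.92% of all windows. A pyrimidine run like that of a 5′ terminal oligopyrimidine tract, a C followed by at least 4 C or T within 10 bases of the start on the gene's strand, was present in 41.9% of the members and 32.8% of all. A match to these letters is a description of the sequence and does not show that a factor binds there.

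Members with and without an E-box were set side by side. In the first table the median relative value of the 10 was -0.19, with 9 of 10 below 0, against 0.11 for the 21 members without an E-box, with 5 below. In the second table the median was -0.005 for the 10, with 5 below 0, and 0.06 for the 19 without an E-box, with 7 below. Over all genes with a window, the first-table median was -0.04 for 683 promoters with an E-box, against -0.02 for the 5590 without. The second-table medians were 0 for 633 with and -0.01 for 5021 without. Of all promoters with an E-box, 54.5% lay below 0 in the first table and 48.8% in the other, and of those without, 51.9% and 50.4%. The contrast between E-box and other members was picked out after the values were seen, and neither it nor its difference between the tables was tested.

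No member passed the authors' test. The members' adjusted p-values in the authors' first deposited table ranged from 0.731 to 0.832. Those in the authors' second deposited table ranged from 0.578 to 0.704. Over all 20556 peaks of the first table, 0% passed an adjusted p of 0.05, and 1.6% had an unadjusted p under 0.05. None of the 39 members had such an unadjusted p, and the smallest p among them in the authors' first deposited table was 0.219. Of the second table's 13577 peaks, 0.14% had an unadjusted p under 0.05. The smallest p of a member in the authors' second deposited table was 0.202, at EIF2B5. These tests had few or no replicates, so passing none does not show that promoters were unchanged.

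By size, 12 of the 39 members (30.8%) were lower by at least 1 on the log2 scale in the first table, where 43.3% of all gene promoters were. The second table had 28 of 36 (77.8%) that low, where 83.4% of all were. No member was higher in the knockout in either table, where 254 of 10187 gene promoters were in the first and 2 of 8297 in the second. In the first table the members ran from -1.29 to -0.35, with a standard deviation of 0.219, beside 0.432 over all promoters. The sets were not matched for level or for distance to the start site, so this smaller spread cannot be taken as particular to the members. In the second table they ran from -1.75 to -0.54, and their standard deviation of 0.279 was near that of all promoters, 0.291. Below the promoter median of the first table were 16 of the 39, where 49.3% of all gene promoters were. Below that of the second were 13 of the 36, where 48.9% of all were.

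**Figure D1:**
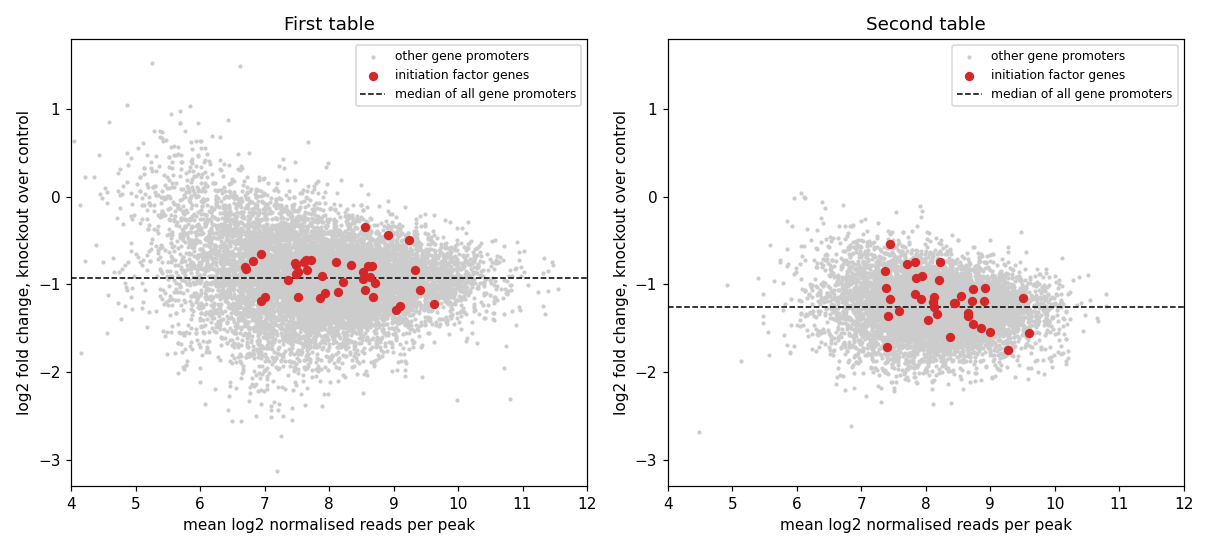
Mean level of each promoter peak (horizontal axis, log2 normalised reads) against its log2 fold change of SETD8 knockout over sgNT control (vertical axis) in the first table (left) and the second (right). Red points are the initiation factor genes, grey points all other gene promoters with a level inside the axis, and dashed lines the promoter medians of -0.93 and -1.26. The red points keep to the middle of the grey cloud, with no member above 0, where 254 and 2 of all gene promoters were.

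The second table allows the reads behind each member to be given. The knockout level is in whole reads (known here to the rounding of the deposited log2 level) and the control level in reads multiplied by 0.918, and the peaks held 2091370 reads of the knockout library and 5345010 of the control in all. Member promoters held a median of 172 reads (range 78.8 to 449) in the knockout library, against 392 normalised reads (range 205 to 1152) in the control library. Every member had fewer normalised reads in the knockout library, and only 2 of all 8297 gene promoters had a fold change above 0 there. The 95% interval of a member's log2 fold change reached 0.26 to either side at the median, and 0.161 to 0.372 over the 36, for counting error only. Intervals are exact binomial ones from the reads of both libraries. PCR duplicates and the spread between cultures are not covered by them.

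Set against the promoter median, 6 of the 36 members had an interval wholly below it, where 16.7% of all gene promoters did. The interval of 9 members lay wholly above the median, where 17% of all did. The 6 were EIF4A3, EIF1, EIF2B5, EIF2B2, EIF2B4 and EIF4EBP1. The 9 were EIF4G3, EIF3G, EIF4H, EIF3A, EIF3E, EIF2B3, EIF4EBP3, EIF2S2 and EIF5. The remaining 21 could not be told from the median promoter at this depth.

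**Figure D2:**
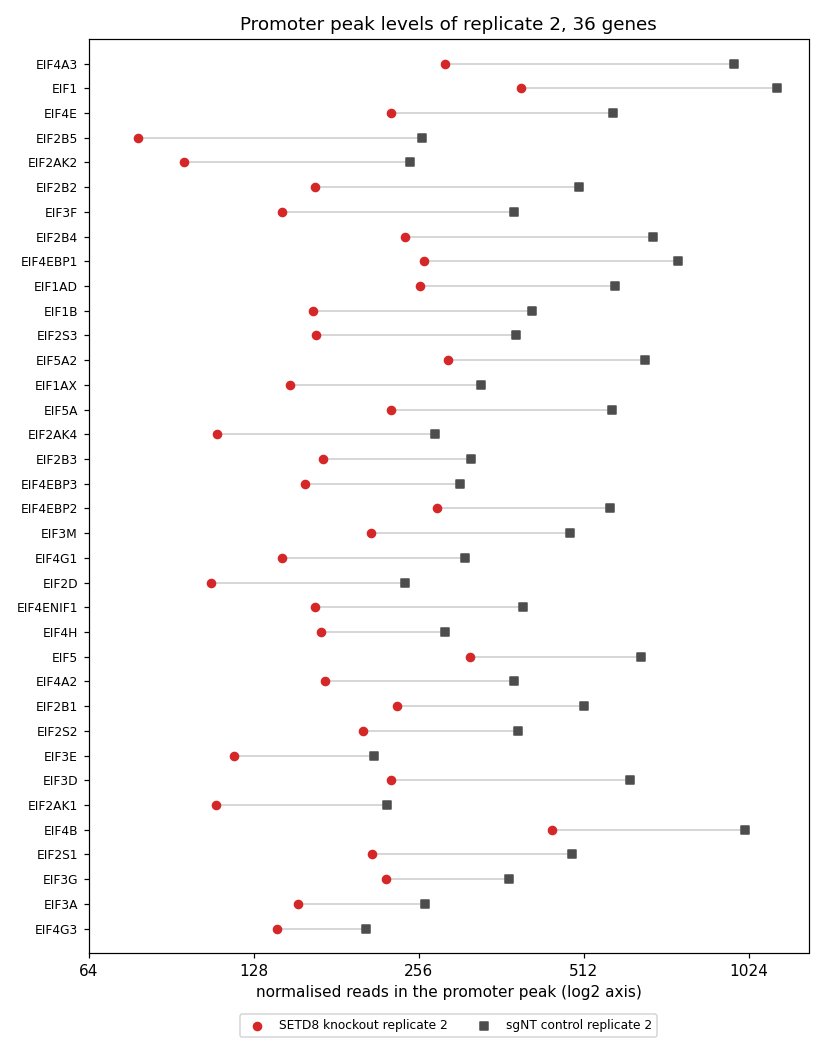
Normalised reads in the promoter peak of 36 initiation factor genes in the SETD8 knockout library (red circles) and the sgNT control library (grey squares) of replicate 2, on a log2 axis. Genes run from the lowest at the top to the highest at the bottom by their fold change relative to the promoter median, averaged over both tables. The knockout is to the left of the control in every gene, and the gap is widest at EIF2B5 and EIF4A3 and narrowest at EIF4G3.

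Between the tables a member's relative fold change varied with a pooled standard deviation of 0.24 (36 genes), and all joined promoters with 0.307. The difference between the tables was 0.245 at the median member and 0.77 at the most. A member that departs from 0 by less than this in 1 table is therefore within the spread between tables. Ranked by the mean of both relative values, the lowest 6 were EIF4A3, EIF1, EIF4E, EIF2B5, EIF2AK2 and EIF2B2. The highest 6 were EIF4G3, EIF3A, EIF3G, EIF2S1, EIF4B and EIF2AK1.

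EIF4A3, a helicase that is the core of the exon junction complex and not of the cap complex, had the lowest mean relative value of the members. Its peak, on chromosome 17 at 80146886 to 80147833, held 286 knockout reads (95% Poisson interval 254 to 321) against 962 normalised control reads. Its relative values were -0.32 and -0.49, the second with an interval of -0.684 to -0.30. Of all gene promoters, 20% were lower in the first table, and 4.59% in the other. EIF4A2, a paralogue that unwinds mRNA leaders in the cap complex, stood at 0.21 and 0.11. Its promoter held 172 knockout reads against 383 normalised control reads. A further peak of EIF4A2, in an exon annotated 9930 bp upstream, stood at -0.83 and 0.26, on either side of the median promoter.

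EIF1, which keeps the scanning ribosome from stopping at wrong codons, had the strongest promoter of the members in the first table, with a mean of 787 normalised reads. It held 393 knockout reads against 1152 normalised control reads. Its relative value was -0.29 in both tables, with an interval of -0.459 to -0.127 in the second. Its paralogue EIF1B was at -0.05 and -0.08. EIF1AX, which encodes the factor that works beside eIF1, was at -0.01 and 0.09. EIF5, the factor that triggers GTP hydrolysis by eIF2, was at 0.07 and 0.22, with 317 knockout reads against 653 normalised control reads. Of these 4 genes of start site selection, EIF1 alone lay below the median in the second table by more than counting error. EIF1AD, a relative of eIF1A by sequence, stood at -0.21 and 0.07.

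The genes whose products promote or hold back the joining of the ribosomal subunits were measured in the first table only. EIF5B, the GTPase of subunit joining, stood at 0.15 and EIF6, which keeps the large subunit free until it is needed, at 0.27. EIF3H, likewise without a second-table peak, was at -0.22 and was the only other member in that position.

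The 3 genes of eIF2, the complex that carries the initiator tRNA, had unlike values. EIF2S1, whose product is the subunit phosphorylated under stress, was at 0.49 in the first table but 0.05 in the second. It held 211 knockout reads against 488 normalised control reads. EIF2S2 was at 0.02 and 0.31, with 202 knockout reads against 388 normalised control reads. EIF2S3, the GTP-binding subunit encoded on the X chromosome, was at -0.13 and 0.06. EIF2D, which can deliver tRNA without GTP, stood at 0.11 and 0.09.

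The genes of eIF2B, the exchange factor that recharges eIF2 with GTP, had a low median in the second table. Their median relative value was -0.24 there. Of the 5 intervals, 3 lay wholly below the promoter median and 1 wholly above, where 16.7% and 17% of all gene promoters did. In the first table the median relative value of these genes was 0.07, with 1 of 5 below 0, where 49.3% of all gene promoters were. The difference between the tables was not tested. EIF2B5, of the catalytic subunit, held 78.8 knockout reads (Poisson interval 62.5 to 98.5) against 260 normalised control reads. This put it at -0.45 (interval -0.836 to -0.0929). EIF2B2 held 165 knockout reads against 501 normalised control reads and stood at -0.34 there. EIF2B4 stood at -0.24, from 242 knockout reads against 685 normalised control reads. In the first table these 3 genes were at 0.07, 0.01 and 0.09. EIF2B3 had the opposite pattern, at -0.21 and 0.36, and EIF2B1 was at 0.19 and 0.13. A further promoter peak of EIF2B5, 500 bp upstream, was found in the first table only and stood at 0.47 there.

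Among the 3 eIF2 kinase genes that are members, EIF2AK2, the double-stranded RNA sensor PKR, was the lowest. Its promoter, on chromosome 2 at 37156183 to 37157225, held 95.7 knockout reads against 247 normalised control reads. It stood at -0.26 and -0.10, and the second-table interval of -0.455 to 0.238 spanned the median promoter. EIF2AK1, the haem-regulated kinase HRI, was at 0.20 and 0.22, with 109 knockout reads against 224 normalised control reads. A stronger peak in an exon of a transcript 21990 bp from its start had 218 knockout reads against 405 normalised control reads, at 0.27 and 0.37. EIF2AK4, the amino acid sensor GCN2, was at 0.19 and -0.05. The promoter of the fourth kinase gene, EIF2AK3, was lower still and is described further down, since its peak carries the name of a divergent transcript.

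Of eIF3, the scaffold on the small subunit, 7 of 14 listed genes were members and 6 had second-table peaks. Their median relative values were 0.09 and 0.23. Of the 6 second-table intervals, 3 lay wholly above the promoter median and 0 below, where 17% and 16.7% of all gene promoters did. EIF3A, the largest subunit, held 154 knockout reads against 263 normalised control reads, at 0.17 and 0.49. EIF3G, an RNA-binding subunit, held 223 knockout reads against 375 normalised control reads, at 0.09 and 0.52. EIF3E was at -0.02 and 0.41. EIF3D, whose product can bind the cap of some mRNAs, was the member whose tables differed most, at 0.58 and -0.19. EIF3F was below the median in both, at -0.16 and -0.15, and EIF3M above it at 0.14 and 0.05.

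The cap-binding protein gene EIF4E had the lowest relative value of the members in the first table, -0.36, with 17.4% of gene promoters lower. It held 228 knockout reads against 580 normalised control reads. This put it at -0.10 with an interval of -0.312 to 0.133, and it could not be told from the median promoter there. The scaffold genes were higher. EIF4G3 had the highest mean relative value of the members, with 141 knockout reads against 205 normalised control reads. It stood at 0.13 and 0.72, the second with an interval of 0.407 to 1.03, and 99.0% of gene promoters were lower there. EIF4G1 was at 0.05 and 0.15.

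The helicase cofactors differed between the tables. EIF4B, encoded by an mRNA known to be controlled by mTORC1, held 449 knockout reads against 1010 normalised control reads, the most knockout reads of any member. It stood at 0.43 and 0.10. EIF4H was at -0.23 and 0.51 (interval 0.229 to 0.782), with 170 knockout reads against 286 normalised control reads.

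The genes of the 4E-binding proteins, which block eIF4E, were unlike each other. EIF4EBP1 stood at 0.14 and -0.28, with 261 knockout reads against 760 normalised control reads. EIF4EBP2 was at -0.04 and 0.21, and its second promoter peak, 1174 bp from the start, at 0.29 and -0.04. EIF4EBP3 was at -0.17 and 0.33. EIF4ENIF1, the transporter of eIF4E, had 4 promoter peaks in the first table, at 1.54, -0.59, 0.56 and 0.21, of which the last was the strongest and overlapped the RefSeq start of SFI1. The one at 1.54 was weak, with 41.4 normalised reads on average, and was not found in the second table. The middle pair fell in 1 broad second-table peak at 0.11, and the strongest peak was at 0.00 there.

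EIF5A, whose product carries the modified amino acid hypusine and aids peptide bond formation, stood at 0.15 and -0.07. Its paralogue EIF5A2 was at -0.13 and 0.07. Neither departed from the median promoter by more than counting error in replicate 2.

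**Figure D3:**
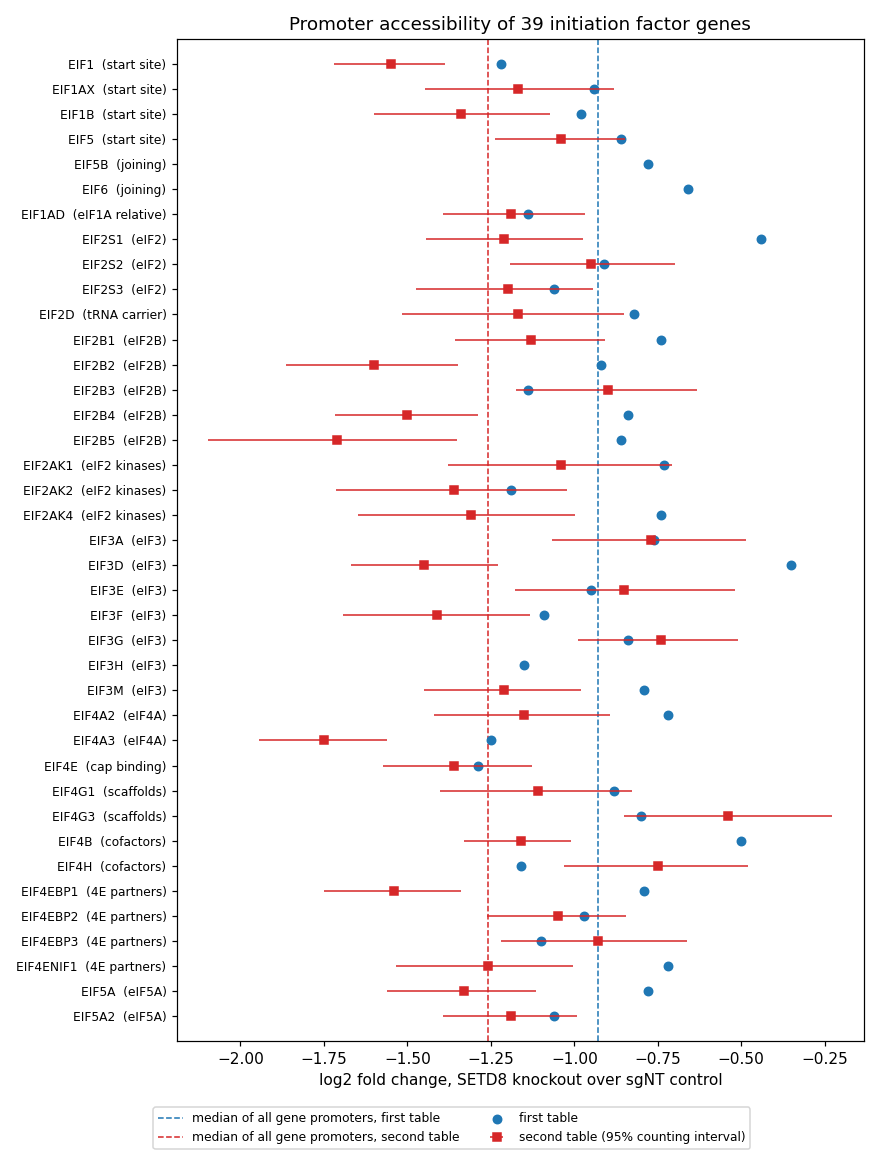
Log2 fold change of SETD8 knockout over sgNT control (horizontal axis) for the promoters of 39 initiation factor genes, grouped by role down the page. Blue circles are the first table and red squares the second with their 95% counting intervals, and dashed lines mark the medians of all gene promoters at -0.93 and -1.26. The 3 lower genes of eIF2B and the pair EIF4A3 and EIF1 lie left of the red line, and EIF4G3, EIF3A, EIF3G and EIF4H lie right of it.

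Fold changes also differed by chromosome region, and several low members shared their region's value. For each promoter the median fold change of the other peaks within the same 5 Mb was taken. At EIF1 this regional median was -1.21 and -1.57, beside table medians of -0.87 and -1.23 over all peaks. The EIF1 promoter minus its region gave -0.01 and 0.02. The region of EIF4A3, also on chromosome 17, was at -1.19 and -1.535, and its promoter minus its region gave -0.06 and -0.215. On chromosome 2 the region of EIF2AK2 was at -1.20 and -1.61, with the promoter 0.01 and 0.25 above it. That of EIF2B4 was at -1.16 and -1.51, with the promoter 0.32 and 0.01 above. What sets the regional values was not tested.

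Other low members differed from their surroundings in 1 table. In the second table EIF2B5 minus its regional median of -1.185 gave -0.525, and EIF2B2 minus its own of -1.27 gave -0.33. EIF4EBP1, on chromosome 8, gave -0.54, from a regional median that was 0.23 above that of all peaks. In the first table EIF2B5, EIF2B2 and EIF4EBP1 gave 0.045, 0.04 and 0.045. EIF4E minus its first-table region at -1.125 gave -0.165, and that region had too few second-table peaks. The members furthest above their regions in the second table were EIF4G3 by 0.64, EIF3G by 0.445, EIF4EBP3 by 0.44, EIF4H by 0.355, EIF2B3 by 0.29 and EIF3A by 0.28. EIF3A was above its region by 0.37 in the first table too. The other 5 were below theirs there, EIF4G3 at -0.04, EIF3G at -0.195, EIF4EBP3 at -0.24, EIF4H at -0.28 and EIF2B3 at -0.45. Relative to regional medians, 19 of 39 members were lower in the first table, where 5674 of 10013 gene promoters were. Of the 33 with a second-table region, 13 were lower, where 4087 of 7546 gene promoters were.

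**Figure D4:**
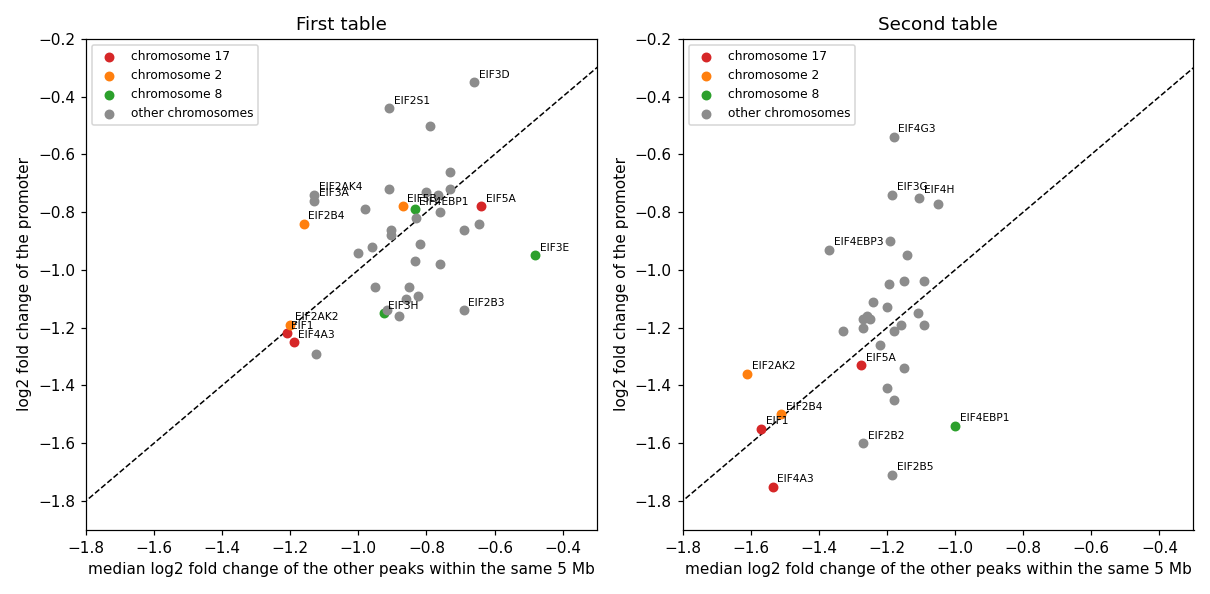
Log2 fold change of each member promoter (vertical axis) against the median of the other peaks within the same 5 Mb (horizontal axis), in the first table (left, 39 genes) and the second (right, 33 genes). Colours mark chromosomes 17, 2 and 8, and the dashed line is equality. EIF1, EIF4A3 and EIF2AK2 sit in the lowest regions in both tables, while EIF2B5, EIF2B2 and EIF4EBP1 lie below the equality line in the second, EIF4EBP1 in the highest region of the 33.

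Several peaks belong to more than 1 gene, and an ATAC-seq peak does not say which start it serves. Of the 39 representative peaks, 6 held the RefSeq start of another gene. These were BANF1 with EIF1AD, GTF2H3 with EIF2B1, ATP6V1D with EIF2S1, SFI1 with EIF4ENIF1, and an antisense or divergent transcript with EIF1B and EIF2B5. The peak of EIF4ENIF1 held no RefSeq start of EIF4ENIF1 itself. Genes without a RefSeq window could not be seen, so 6 is a minimum. Conversely, 12 other initiation factor genes have a RefSeq window, and 8 of them had a first-table peak over their start that was named for a neighbour. These are not among the 39. The lowest was at EIF2AK3, the endoplasmic reticulum stress kinase PERK, in a peak named for EIF2AK3-DT on chromosome 2 at 88627231 to 88628282. It held 271 knockout reads against 942 normalised control reads, and stood at -0.58 and -0.54. The promoter of EIF4A1, in a peak named for the readthrough gene SENP3-EIF4A1, was at 0.88 and 0.01. EIF3K was at -0.52 and -0.04, EIF3J at -0.43 and 0.12, and EIF3B at 0.64 and -0.07. EIF2A was at 0.07 in both tables, EIF4G2 at -0.13 and 0.09, and EIF4E2 at -0.18 and 0.46.

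Other genes of translation, from a list of 48 that act in elongation, termination, mRNA cap and poly(A) binding, mTORC1 signalling, the eIF2 stress response and mitochondrial initiation, also had medians above that of all promoters. A promoter peak was present for 37 of them, 32 also in the second table. Their medians were 0.15 and 0.11 above the median promoter. By deposited fold change 9 of 37 and 22 of 32 were lower by at least 1, where 43.3% and 83.4% of all gene promoters were. None of the listed genes passed the authors' test in the first table, where 0% of all 20556 peaks did. Of the 32 counting intervals, 12 lay wholly above the promoter median and 2 wholly below, where 17% and 16.7% of all gene promoters did. By the mean over both tables the highest were DOHH, which completes hypusine on eIF5A, at 1.32 and 0.37, EEF1A1, the elongation factor that delivers tRNA, at 0.18 and 1.33, RPTOR of mTORC1 at 1.25 and -0.24, and PABPC4, a poly(A)-binding protein gene, at 0.55 and 0.39. The second-table value of EEF1A1 came from 35610 knockout reads against 34160 normalised control reads, whereas its first-table peak had a mean of 873 normalised reads. The 2 tables thus hold very different signal at this promoter, and why was not tested. The lowest were MTIF2, the mitochondrial counterpart of eIF5B, at 0.20 and -1.01, TSC1, an inhibitor of mTORC1, at -0.20 and -0.17, GSPT1, a termination factor gene, at 0.28 and -0.60, and EEF1B2 at -0.13 and -0.18. The intervals of TSC1 and EEF1B2 spanned the median promoter. Their fold changes, -1.13 and -1.43 at TSC1 and -1.06 and -1.44 at EEF1B2, were near their regional medians of -1.035 and -1.425, and -1.11 and -1.44. MTIF2 held 45.9 knockout reads, in a region at -1.37 and -1.58, and the region of GSPT1 was at -0.58 and -1.15. ATF4, the transcription factor translated when eIF2 is phosphorylated, was at -0.01 and 0.21, and DHPS, the other hypusine enzyme, at 0.09 and 0.03. Ribosomal protein genes of the cytosol, a further set, had medians 0.08 (53 genes) and 0.03 (47 genes) above the median promoter.

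As a check of the labels, the KMT5A promoter held 251 knockout reads against 685 normalised control reads, at 0.11 and -0.19. An edit in coding sequence need not change a promoter's accessibility, so this checks the labels only in part. For the cell type, 7 of 10 marker genes of myeloid progenitors had a promoter peak, including CD34, KIT, SPI1 and RUNX1, and MPO, CD33 and RUNX1T1 had none. Of 4 markers each of T cells, B cells and epithelial or liver cells, 2, 2 and 1 had one.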

How the data were processed

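The samples are 4 ATAC-seq libraries of Kasumi-1, 2 of SETD8 knockout and 2 of sgNT control. Per the submitters' processing notes, the tools were MACS2 2.1.2, Bowtie2, cutadapt, ChIPseeker, SAMtools and deepTools, with build hg38. Read shifting, duplicate and mitochondrial read removal and the scaling between libraries are not given in the sources used here. As deposited, there are 2 peak tables of log2 levels, log2 fold changes, p-values and adjusted p-values. The second table's columns are log2 levels, log2 fold changes and p-values per the file headers. The first has numbered columns, identified by place and range, its direction comes from its name, and 2 columns of levels were left unused because their libraries are not named.

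Depth in the second table was recovered from its levels: 100% of 955 weak knockout values were whole reads, and 100% of 165 weak control values were reads multiplied by 0.918, within 0.005 on the log2 scale. The factor 0.918 was searched for as the one giving the largest such share, so the control's 100% is partly set by that choice. At stronger peaks reads are known only to the rounding of the deposited value. Each gene took its strongest peak annotated as promoter (within 3 kb), and was joined to the second-table peak with the greatest overlap (minimum 1 bp). Regional medians needed at least 10 other peaks in the 5 Mb bin. Counts per library were not available for both replicates, so the authors' p-values stand in place of a test across libraries, and 1 library per group gives no replicate check. The named genes were the 6 lowest and 6 highest members by the mean relative fold change, the ends of each role group, and the 4 lowest and highest of the pathway list. Others are named because the set is small, after their values were seen. Members and lists were chosen with earlier results of these data known. Promoter windows of 300 bases are from RefSeq GRCh38.p14, and 32 of 39 members matched.

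Alternatives changed the peak that stands for a gene, the promoter width, a level filter, regional and level trends, centring, the fold and the overlap. A replicate block fit (limma 3.58.1, R 4.3.3) on the 2 fold changes of 11117 joined peaks was tested on simulated data. With noise of standard deviation 0.325, it found 100 of 100 peaks changed by 2 in each direction and made 9 false calls. Changes of 2 are larger than the relative value of any member. The simulation therefore does not show whether the fit would find changes of the members' size. Python 3.11.15, numpy 2.4.6, pandas 2.3.3, scipy 1.17.1 and matplotlib 3.10.9 were used.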

Additional observations from a re-analysis of the deposited data

How the results depend on the processing

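The members' median fold change stayed between -0.88 and -0.805 in the first table, and between -1.195 and -1.145 in the other, under the alternatives run for it. These included one added after the data were seen that left out the peaks shared with another gene. Centring was run for the counts only. The regional and level settings added the median of all peaks (-0.87 and -1.23) back, so their medians lie near it by construction. Minus their regions alone, the members' medians were 0.01 and 0.07, so these settings do not show a lower median apart from the shared shift. Counts below the promoter median stayed within 1.5 times. The counts lower by at least 1 (12 and 28) rest on the scaling: centred on the median of all peaks, 0 members of either table were lower by at least 1. Most gene promoters were not that low after centring either, as their lower quartiles before it were -1.19 and -1.44. The count of 0 therefore does not set the members apart. At a 1.5-fold difference the first-table count was 36 of 39. Most gene promoters also passed it, as their upper quartile in that table was -0.68. The count of 36 therefore does not set the members apart from the shared shift. Exact shares of all gene promoters under centring or at a 1.5-fold difference are not given here. Subtracting the regional median moved the first-table value of 8 of 39 members and the second-table value of 4 of 33 by more than the 0.24 between tables, EIF1, EIF2AK2, EIF2B4 and EIF4A3 in both, and using the peak nearest the start moved none. With a replicate block across both tables, limma called 36 of 36 joined members as deposited, where 96.7% of all joined peaks were called. With each table centred it called 0 of 36, where 6 of all 11117 joined peaks (0.054%) were called. There the lowest adjusted p of a member was 0.499 and none had an unadjusted p under 0.05. That fit takes the tables as independent, and whether the numbers pair the libraries could not be checked. The second table alone, the setting without replicate 1, has 1 library per group, so its calls cannot decide whether members changed. Leaving out replicate 2 was not run, because the libraries of the first table are not named.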
